A study of Mus musculus with 16 samples.

Results

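The genes of the respiratory chain were followed in sorted mouse neutrophils as 110 protein-coding genes, of which 97 lie in the nuclear genome and 13 in the mitochondrial genome, out of 49585 gene identifiers counted. Membership was set by symbol, as protein-coding genes whose symbols begin with Nduf, Sdha, Sdhb, Sdhc, Sdhd, Uqcr, Cox4, Cox5, Cox6, Cox7, Cox8, Atp5, mt-Nd, mt-Co, mt-Cytb or mt-Atp. The set itself was chosen with earlier results of these data known. By complex, 51 members belong to complex I, 8 to complex II, 9 to complex III, 23 to complex IV and 19 to complex V, with assembly factors that share the prefixes (Ndufaf, Sdhaf and Atp5s) counted with their complex. RNA sequencing libraries came from neutrophils sorted by flow cytometry from the bones of C57BL/6 mice aged 8 to 12 weeks. There were 16 libraries, 4 in each of 4 groups: P2KO, with floxed PHD2 and Vav:cre; P2WT, the wild-type controls of that line; P2H2KO, with PHD2 and HIF2 both floxed and Vav:cre; and P2H2WT, the wild-type controls of the double line. Vav:cre is a recombinase active in blood-forming cells, so every blood lineage descends from cells that carried it, and whether the controls carry floxed alleles or Cre is not stated. Libraries are named by the numbers in their titles, and nothing in the labels says that each came from another mouse, so p-values measure the spread between these libraries, which may be technical.

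The respiratory chain sits in the inner mitochondrial membrane. Complexes I and II take electrons from NADH and succinate, complex III passes them on to cytochrome c, complex IV hands them to oxygen, and complex V, the ATP synthase, makes ATP from the proton gradient that complexes I, III and IV build. Core subunits of complexes I, III, IV and V are encoded in mitochondrial DNA and must be matched with subunits imported from the cytosol, whereas complex II is encoded in the nucleus alone. Neutrophils make most of their ATP by glycolysis and are known for few mitochondria. The oxygen sensor PHD2, encoded by Egln1, marks the alpha subunits of the hypoxia-inducible factors HIF1 and HIF2 for destruction, and HIF1 is known to raise glycolytic genes and to restrain mitochondrial respiration.

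Total counts per library ran from 23450746 to 28601284. All 13 neutrophil marker genes were counted in every library, and their summed level was between 32041 and 83653 CPM (the usual unit of counts relative to library size, with library sizes scaled by the TMM method). All 15 erythroid markers were counted as well, with a sum between 28163 and 57047 CPM, so erythroid RNA was present in libraries of cells labelled as neutrophils. In such bulk libraries fewer cells of a type and less RNA per cell cannot be told apart. No difference of Egln1 by label was detected (exact two-sided permutation p = 0.857 in the P2 line and 0.771 in the P2H2 line), and none of Epas1, which encodes HIF2 (0.914 and 0.171), in tests that cannot go below 0.0286. Counts were given per gene and which exons were floxed is not stated, so these values need not show the loss of part of a gene, and the group names are used as labels. The HIF target Ankrd37 was higher in P2KO and in P2H2KO than in the controls of each line, by 2.73 (SE 0.18) and 2.70 (SE 0.17) on the log2 scale (edgeR quasi-likelihood test, Benjamini-Hochberg adjusted p = 0.000665 and 0.000414). Ankrd37 shares exonic bases with Ufsp2 and Lrp2bp on the opposite strand and the use of strand is not stated, so its counts are uncertain.

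Of the 13 mitochondrially encoded members, 7 were counted in number and 6 were at or near 0 in every library. These 6 were mt-Co2 (0 to 2 counts per library), mt-Atp6, mt-Co3 and mt-Nd3 (0 to 1 counts each), and mt-Atp8 and mt-Nd4l (0 counts throughout). They encode a core subunit of complex IV that receives electrons from cytochrome c (mt-Co2), another core subunit of that enzyme (mt-Co3), both mitochondrial subunits of complex V (mt-Atp6 and mt-Atp8) and a pair of membrane subunits of complex I (mt-Nd3 and mt-Nd4l). At these depths a count of 0 allows a level of up to 0.135 CPM in the library with the smallest scaled size (3 counts, a limit that covers counting error only). The other 7 were mt-Co1, with 66468 to 98989 counts per library, mt-Cytb with 29303 to 54364, mt-Nd1 with 19906 to 34177, mt-Nd5 with 18764 to 32067, mt-Nd2 with 10565 to 21552, mt-Nd4 with 10672 to 19682, and mt-Nd6, the only member read from the other strand, with 104 to 206.

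The 6 uncounted genes lie side by side in the mitochondrial genome, from base 7013, the start of mt-Co2, to base 10173, the end of mt-Nd4l (GENCODE M21, GRCm38). Of these, 5 match annotated pseudogenes on chromosome 1 over nearly their whole length: mt-Co2 over 681 of 684 bases (Gm28661), mt-Atp6 over 678 of 681 (Gm10925), mt-Co3 over 783 of 784 (Gm28437), mt-Nd3 over 345 of 348 (Gm28438) and mt-Nd4l over 294 of 297 (Gm10222). The matches are identical base for base except for 1 mismatch in mt-Nd3. For mt-Atp8, 43 of 204 bases match a copy. Flanking genes match in part: 483 of 1545 bases of mt-Co1 (Gm29216, 1 mismatch) and 876 of 1378 bases of mt-Nd4 (Gm28439, no mismatch). The 7 pseudogenes form 1 run on the minus strand of chromosome 1, from 24611535 to 24616197, of 4663 bases, and the stretch of mitochondrial genome that they span, from base 6390 to base 11042, has 4653. The bases between the copies of mt-Co2 and mt-Atp6, where mt-Atp8 would fall, number 233 on chromosome 1 and 230 in the mitochondrial genome, and their sequence was not read here.

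The first 60 bases of mt-Nd4l and of mt-Nd3 are shown with those of their chromosome 1 copies, and 60 bases of mt-Cytb with its copy Gm11410 (chromosome 4, 80003989 to 80005131), to set a pair of uncounted genes beside a counted one. Capitals mark the bases that differ between a gene and its copy.
mt-Nd4l: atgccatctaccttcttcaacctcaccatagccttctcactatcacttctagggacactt
Gm10222: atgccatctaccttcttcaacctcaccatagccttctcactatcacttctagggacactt
mt-Nd3: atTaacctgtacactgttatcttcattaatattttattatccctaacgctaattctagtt
Gm28438: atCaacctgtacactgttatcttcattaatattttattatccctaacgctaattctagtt
mt-Cytb: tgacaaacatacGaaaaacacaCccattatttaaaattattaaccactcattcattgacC
Gm11410: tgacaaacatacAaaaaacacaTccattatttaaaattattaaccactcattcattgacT
The stretch of mt-Nd4l has no capitals, since it is the same in both places. In mt-Nd3 the 1 capital is the only mismatch of the 345 aligned bases. In mt-Cytb 3 mismatches fall in the 60 bases shown and 81 in the 1142 aligned, and mt-Cytb was counted at 1267 to 2041 CPM.

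Among genes with part of their length in an annotated copy, mt-Nd4 was counted, with 876 of 1378 bases in a copy without mismatch. The gene mt-Atp8 was at 0 with 43 of 204 bases in one, and the stretch of chromosome 1 where it would fall was not read. Apart from mt-Nd4 and mt-Co1, the counted genes had no copy or one with more mismatches. For mt-Nd1 no match of 90% identity or more was found. The closest copies of mt-Nd2 (Gm13339, 96.7% identity over 510 bases), mt-Nd6 (Gm11408, 93.6% over 519) and mt-Nd5 (Gm11407, 92.3% over 1058) carried 17, 33 and 79 mismatches. The pseudogenes were at or near 0 too: each of the 7 copies on chromosome 1 had between 0 and 4 counts in every library. How the counting treated reads that match 2 places is not stated in the sources used here, and its part in the pattern was not tested. The zeros are given as counts in these tables, and no level of the 6 genes was read from them.

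**Figure D1:**
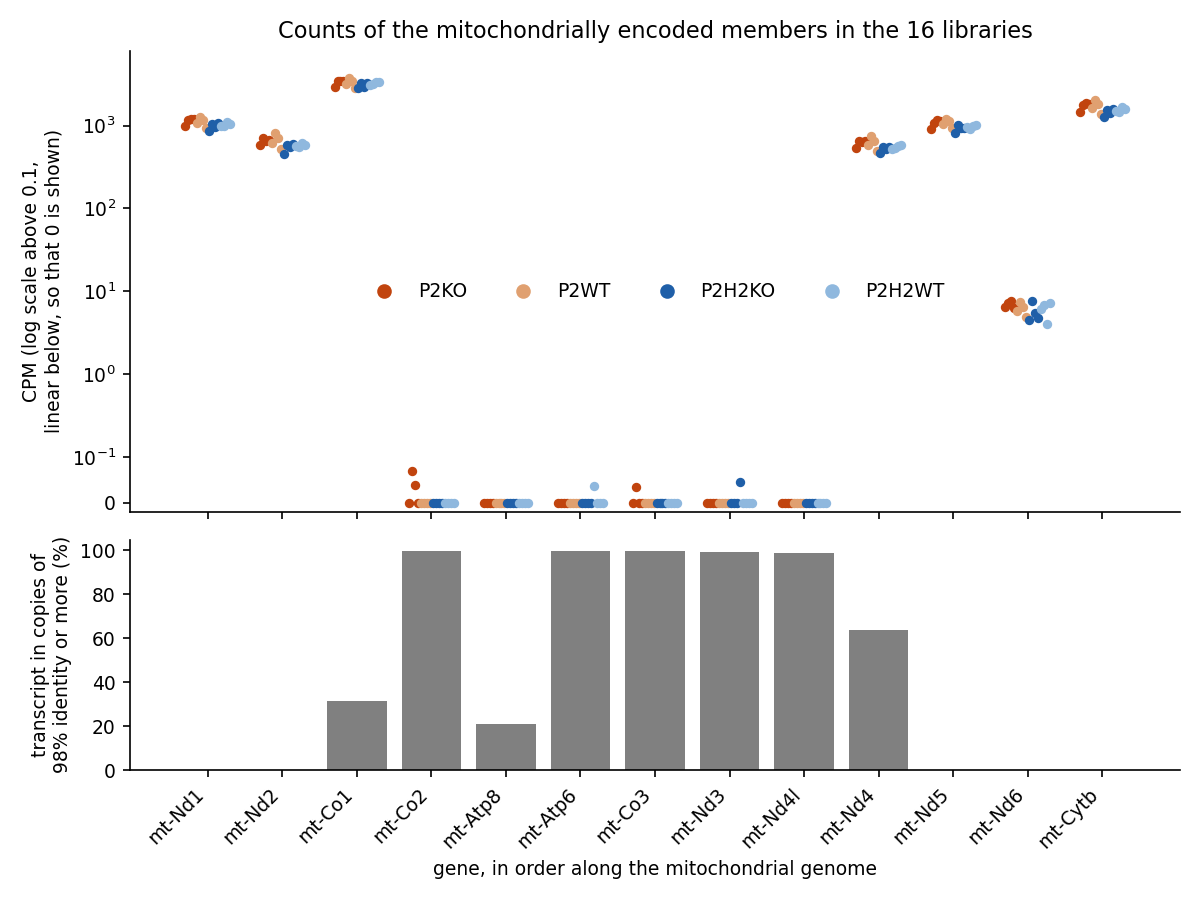
CPM of the 13 mitochondrially encoded members in each of 16 libraries (top, points coloured by group) and the percentage of each transcript that lies in copies of 98% identity or more elsewhere in the annotation (bottom). The 5 genes with 99.0% to 99.9% of their length in copies, and mt-Atp8 between them, sit at or next to 0 in every group, and mt-Co1 and mt-Nd4, with 31.3% and 63.6%, do not.

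For levels that can be compared between genes, counts were divided by exon length and scaled so that all genes of a library sum to the same total (level per length). On this scale 6 mitochondrial members stood above every nuclear one: mt-Co1 at 5682 (mean of 16 libraries, range 4861 to 6956), mt-Cytb at 3844 (2894 to 5159), mt-Nd1 at 3035, mt-Nd2 at 1607, mt-Nd5 at 1506 and mt-Nd4 at 1143. With coding length in place of exon length the first 3 stayed above every nuclear member, at 2137, 1443 and 1143, whereas mt-Nd2 at 604.8, mt-Nd5 at 566.0 and mt-Nd4 at 429 fell below Atp5b at 711. The order among the 6 also depends on the length taken for genes with copies. All counts of mt-Nd4 gave 419 CPM per kilobase over its whole length. Divided by the length outside the copies alone they gave 1151, next to 1114 for mt-Nd1. The same division took mt-Co1 from 2089 to 3040, still the highest. It takes no counted read to come from the copied bases, which was not tested. The lowest of the 7, mt-Nd6, was at 32.3 (20.5 to 41.0), in the range of nuclear members.

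Among the 97 nuclear members the median level per length was 86.9, and 108.9 when coding length was used in place of exon length. By exon length the highest were the catalytic core of complex V, Atp5a1 at 722 and Atp5b at 710, which encode the alpha and beta subunits and whose library ranges (612 to 789 and 601 to 782) overlapped, followed by the complex IV subunits Cox6a1 at 606, Cox8a at 550, Cox4i1 at 527 and Cox6b1 at 438. By coding length Atp5b led at 711, ahead of Atp5e, the epsilon subunit of the ATP synthase, which went from 138 to 584, Cox8a at 575, Atp5a1 at 512, Cox4i1 at 487 and Cox6a1 at 475. The order of the core subunits turned with the length as well. Their medians by exon and by coding length were 202 and 343 for complex V, 136 and 151 for complex II and 108 and 80.7 for complex I, and Uqcrfs1, the Rieske iron-sulfur protein of complex III, was at 216 and 134.5. Assembly factors, which help to build a complex and do not stay in it, were lower with either length, with medians by exon length of 12.8 for complex I and 12.1 for complex II, and Atp5s at 5.88. The lowest of complex II was the assembly factor Sdhaf3, at 1.27 by exon and 6.49 by coding length. The lowest of complex I by exon length was Ndufb2 at 4.98, which was at 33.4 by coding length, where the assembly factor Ndufaf6 at 3.55 was the lowest.

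Complex IV has subunits that come as alternative isoforms, and in each set 1 isoform held most of the RNA, with either length; the values here are by exon length. Cox4i1 was at 527 against 1.38 for Cox4i2, the isoform known to be induced by hypoxia. Cox6a1 was at 606 against 24.1 for Cox6a2, and Cox7a2 at 238 against 1.68 for Cox7a1, the second of each pair being known from heart and muscle. The related Cox7a2l was less far below Cox7a2, at 129, and by coding length at 178 against 339. Cox6b1 was at 438 against 35.0 for Cox6b2, known from testis. Cox8a was at 550 against 0.0406 for Cox8b, with 0 to 1 counts per library, and Cox8c had none. Ndufa4 was at 203 against 0.0846 for Ndufa4l2, a HIF target in many tissues, which had 0 to 4 counts per library. Cox7b2, the other nuclear member without reads, had no counts in any library. The non-alternative subunits Cox5a and Cox5b, which are both needed, were at 136 and 139 with overlapping ranges, and at 246 and 191 by coding length.

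Near-identical copies touched nuclear members too, and 11 had at least 20% of their longest transcript in copies of 98% identity or more. Atp5h had the largest share, 80.1%, and was still counted at a level of 296 by exon length. Ndufs3, with 75.7%, was at 19.0, the lowest of the complex I core, and Atp5l, with 57.4%, was at 0.843, the lowest of complex V. The medians were 66.8 for the 11 and 88.1 for the other 86 by exon length, and 122 and 106 by coding length, so the order of the medians turned with the length used. Levels of these 11 are uncertain for this reason, and their fold changes rest on the reads that were kept.

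**Figure D2:**
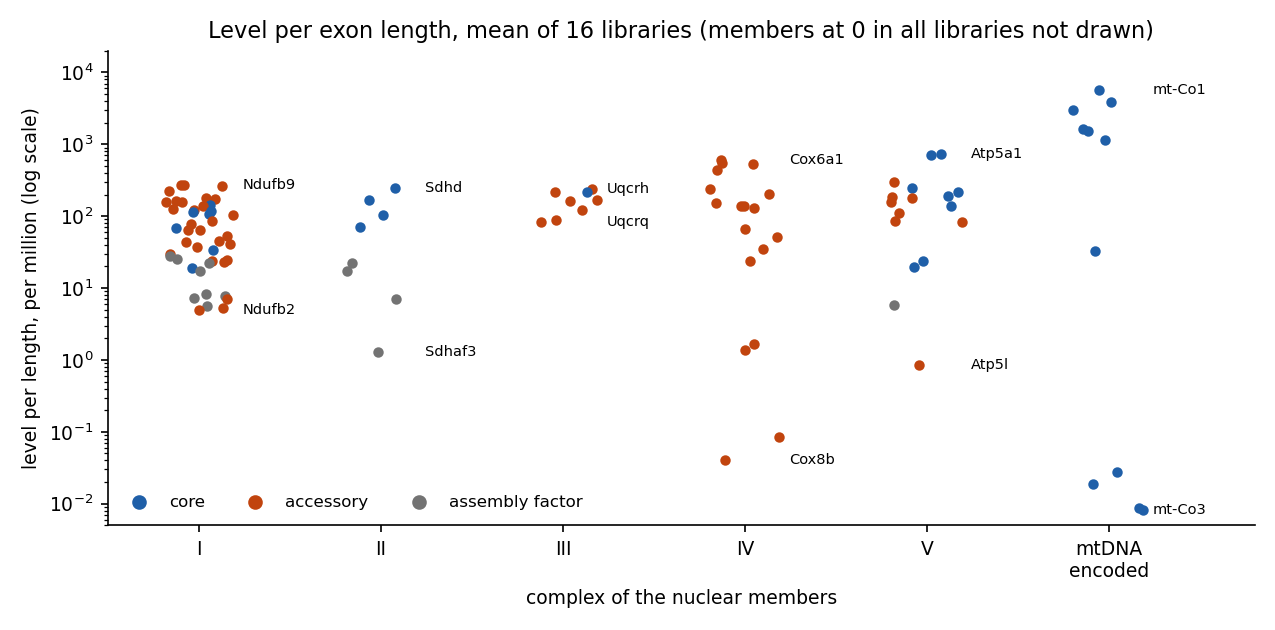
Level per exon length (counts per length, scaled to the same total in each library, mean of 16 libraries, log axis) of each member by complex, with core subunits, accessory subunits and assembly factors in different colours and the highest and lowest of each column named. The counted mitochondrial genes reach 5682, against 722 for the highest nuclear member, and members at 0 in all libraries are not drawn.

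The comparison of P2KO with P2WT asks what loss of PHD2 does to these genes, and no member of the respiratory chain passed the test. Of 110 members, 100 had enough counts to be tested, 93 nuclear and 7 mitochondrial. With edgeR's quasi-likelihood test, 0 had a Benjamini-Hochberg adjusted p under 0.05, where 0.0437% of all 13734 genes did, and 0 had an unadjusted p under 0.05, where 3.5% of all genes did. DESeq2 also called 0, beside 0.167% of all genes. The groups overlapped for all 100 members, and 2.25% of all genes had groups that did not overlap. The median log2 fold change was -0.0032 over the nuclear members (41 above 0 and 52 below, where 42.2% of all genes lay below) and 0.012 over the mitochondrial ones, beside 0.020 over all genes. The 95% interval of 97 of the 100 lay within 0.5 log2 units of 0, so a larger change of any of these fell outside its interval. The median of the mitochondrial members moved between -0.073 without P2WT replicate 7 and 0.10 without P2WT replicate 3, so its sign rests on single libraries. The 3 members with a wider interval were all scarce: Cox7a1, Cox4i2 and Atp5l. T and NK cell markers were below 0 for 12 of 12, and monocyte and macrophage markers for 15 of 15. At an unadjusted p under 0.05 there were 5 and 4 of them. Their sums did not overlap between the groups (79.7 to 108 against 110 to 130, and 2426 to 3096 against 3107 to 3798 CPM). Erythroid markers were above 0 for 15 of 15 and neutrophil markers for 5 of 13. No marker of these lists had an adjusted p under 0.05 by edgeR, and their part was not tested.

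Values by library show how close the groups were. Atp5b, the catalytic beta subunit of the ATP synthase, averaged 1092 ± 68.4 CPM (SD, n = 4) in P2KO and 1071 ± 39.7 in P2WT, and Sdha, the flavoprotein of complex II that oxidises succinate, 252 ± 10.7 and 255 ± 11.02. mt-Co1, the catalytic core of complex IV, was at 2957, 3410, 3459 and 3405 CPM in P2KO replicates 1, 5, 6 and 9 and at 3190, 3717, 3489 and 2828 CPM in P2WT replicates 10, 3, 4 and 7. The spread within each group was wider than the gap between them, and the log2 fold change was 0.012 (SE 0.12). Cox7a1, the muscle-type complex IV isoform, had the smallest p of the 100. It was at 0.478, 0.380, 0.355 and 0.422 CPM in P2KO and at 0.252, 0.451, 0.162 and 0.158 CPM in P2WT, which is 0.67 on the log2 scale (SE 0.36, edgeR adjusted p = 0.99999), on 4 to 16 counts per library over the 16. Next came Atp5l, subunit g of the ATP synthase, at 0.38 (SE 0.20), Atp5g2, a gene for the c-ring, at -0.17 (SE 0.10), the complex II assembly factor Sdhaf2 at 0.095 (SE 0.065) and the complex III subunit Uqcr10 at 0.083 (SE 0.057).

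In the line labelled as lacking PHD2 and HIF2, P2H2KO against P2H2WT, again no member passed. Of 98 tested (91 nuclear, 7 mitochondrial), 0 had an adjusted p under 0.05, beside 0.0744% of all 13435 genes, and 0 an unadjusted p under 0.05, beside 2.63%. DESeq2 called 0 as well, beside 0.313%. More members lay below 0 than above: 71 of 91 nuclear and 7 of 7 mitochondrial, where 49.5% of all genes lay below 0. The shift was small, with a median log2 fold change of -0.035 over nuclear and -0.077 over mitochondrial members beside 0.0011 over all genes. Both medians leaned on single libraries. Without P2H2WT replicate 16, which had the highest nuclear sum of the 16, the nuclear median was -0.0020 and 48 of 91 lay below 0, and without P2H2KO replicate 11 the mitochondrial median was -0.018 and 6 of 7 lay below 0. The 95% interval stayed within 0.5 log2 units for 93 of the 98. The exceptions were Sdhaf3, Cox6a2, Atp5l, Ndufaf5 and mt-Nd6.

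Markers of other cells lay to one side in this comparison too. Of 15 monocyte and macrophage markers, 11 were below 0 and 9 were lower at an unadjusted p under 0.05, with a sum of 2598 to 4706 CPM in P2H2KO and 2862 to 4509 in P2H2WT. B cell markers were below 0 for 11 of 11 (238 to 623 against 372 to 779 CPM) and erythroid markers for 14 of 15 (28163 to 53525 against 40451 to 57047 CPM). Neutrophil markers were above 0 for 13 of 13, with 1 at an unadjusted p under 0.05 (44286 to 83653 against 46322 to 71115 CPM). All these sums overlapped between the groups, no marker of these lists had an adjusted p under 0.05 by edgeR, and their part in the shift of the members was not tested.

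The member with the smallest p in the double line was Ndufv3, an accessory subunit beside the NADH-binding site of complex I. It was at 46.3, 44.2, 52.5 and 54.1 CPM in P2H2KO replicates 11, 12, 15 and 17 and at 43.5, 38.8, 43.0 and 47.2 CPM in P2H2WT replicates 13, 14, 16 and 18. The groups overlapped, and the log2 fold change was 0.19 (SE 0.087, edgeR adjusted p = 0.9999). Sdhaf3, a factor that helps to mature the iron-sulfur subunit of complex II, was the only member whose groups did not overlap (lower, as for 0.811% of all genes), at 2.08, 2.21, 2.01 and 2.25 CPM in P2H2KO and 2.54, 3.90, 2.32 and 2.30 CPM in P2H2WT. The lowest control library thus sat just above the highest P2H2KO one, and the log2 fold change was -0.37 (SE 0.20). The complex I assembly factor Ndufaf1 followed at -0.19 (SE 0.11), then Cox6a2 at 0.25 (SE 0.16) and Atp5l at 0.34 (SE 0.22).

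The difference of the 2 effects compares the change by label in the P2 line with that in the P2H2 line. The labelled loss of HIF2 goes with the mouse line and the deposited table, so these cannot be told apart here. None of the 100 members tested showed such a difference, with 0 at an adjusted p under 0.05 (0.0% of all 14080 genes), 0 at an unadjusted p under 0.05 (1.51% of all genes), and 0 called by DESeq2 (0.0% of all genes). The interval of the difference was within 0.5 log2 units for 88 of 100, so for 12 members, mostly scarce ones and assembly factors, a difference of that size was not excluded by its interval. Atp5g2 came closest, at -0.31 (SE 0.15, edgeR adjusted p = 0.999). It was at 13.9, 12.9, 12.6 and 13.4 CPM in P2KO, 15.9, 14.004, 12.6 and 17.1 in P2WT, 14.3, 17.1, 15.5 and 17.3 in P2H2KO and 13.9, 13.4, 17.2 and 14.01 in P2H2WT. The median difference was 0.022 over nuclear members, and turned to -0.021 without P2KO replicate 1. Over mitochondrial members it was 0.083, with 7 of 7 above 0, and turned to -0.0074 without P2WT replicate 7.

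**Figure D3:**
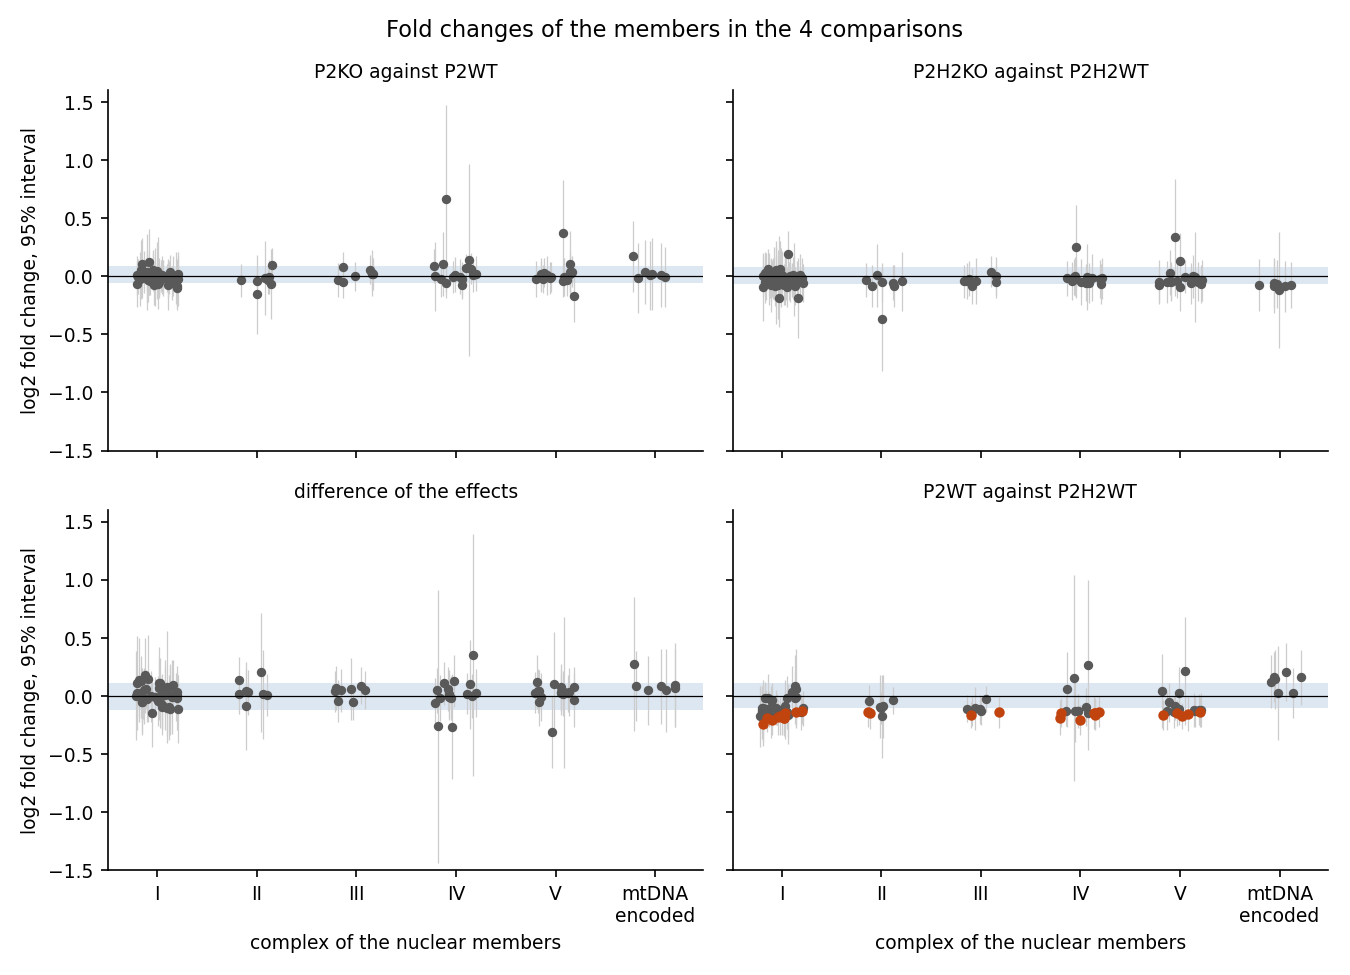
Log2 fold change of each tested member with its 95% interval in the 4 comparisons, nuclear members by complex and mitochondrially encoded members apart; red points have an unadjusted p under 0.05 and the blue band spans the middle 50% of all genes. Red points appear only in the comparison of the 2 control groups, where 27 nuclear members lie below 0, and the wide intervals belong to scarce members.

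Genes around the respiratory chain that were listed apart from it gave few calls. Of 12 HIF-linked mitochondrial genes, 2 were higher in P2H2KO than in P2H2WT at an adjusted p under 0.05: Bnip3, a mitophagy receptor, by 1.21 (SE 0.10, adjusted p = 0.00233), and Pdk1, the kinase that keeps pyruvate from entering the mitochondrial pathway of oxidation, by 0.70 (SE 0.093, adjusted p = 0.0461). In P2KO against P2WT they were at 0.96 (SE 0.14) and 0.57 (SE 0.096) with adjusted p = 0.102 and 0.210, and the difference of the effects was -0.26 (SE 0.17) and -0.14 (SE 0.14) with adjusted p = 0.999 for both. DESeq2 called both genes in the P2 line too, and the call of Pdk1 in the P2H2 line was lost with any of the 8 libraries left out (adjusted p = 0.0949 to 0.179). Of 38 further assembly factors tested, 29 genes for the upkeep and transcription of mitochondrial DNA, 9 regulators of mitochondrial genes such as Nrf1 and Ppargc1b, 8 other entry points of electrons, genes for uncoupling and exchange and the pair Cyc1 and Cycs, 0 passed in either line. At an unadjusted p under 0.05 there were 0 of 95 in the P2 line and 2 of 94 in the P2H2 line, or 2.13%, which is below the 2.63% of all genes. These 2 were lower in P2H2KO: Taco1, a translational activator of mt-Co1, at -0.25, and Polg2, a subunit of the mitochondrial DNA polymerase, at -0.29.

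In 3 of the 4 groups most nuclear members had their highest value in the same library. In P2KO the nuclear sum ran from 7282 CPM in replicate 6 to 8120 in replicate 1. Replicate 1 was the highest of the group for 63 of 93 nuclear members, or 67.7%, beside 17.2% of all genes tested, and replicate 6 the lowest for 64, or 68.8%, beside 37.8%. In P2H2WT replicate 16, with a sum of 8898, was the highest for 65 (69.9%, beside 24.2% of all genes), and in P2H2KO replicate 17, with 8501, for 55 (59.1%, beside 22.6%). In P2WT, from 7556 to 7807, the most frequent highest library was replicate 7, for 38 (40.9%, beside 25.3%). These sums depend on the scaling of library sizes. As a share of all counts in a library, the nuclear members held 0.696% to 0.8293% in P2KO, 0.745% to 0.818% in P2WT, 0.768% to 0.813% in P2H2KO, where replicate 11 was then the highest, and 0.762% to 0.883% in P2H2WT. The mitochondrial sum followed another order in P2KO and P2WT. P2KO replicate 1, the highest nuclear library of its group, was the lowest for 6 of 7 mitochondrial members, beside 19.8% of all genes. P2WT replicate 7 was the lowest for 7 of 7, beside 25.2%. In P2H2WT, replicate 16 had the highest of both sums, and was the highest for 4 of 7 mitochondrial members, beside 24.2% of all genes. In P2H2KO, replicate 12 had the highest mitochondrial sum, at 7977 CPM, next to 7972 in replicate 17. The ratio of mitochondrial to nuclear sums ran from 0.916 to 1.23 in P2KO, 0.909 to 1.28 in P2WT, 0.817 to 1.01 in P2H2KO and 0.902 to 1.003 in P2H2WT, so the groups overlapped. On the CPM scale the library with the highest nuclear sum also had, in all 4 groups, the highest sum of early granule genes such as Mpo and Elane. These mark young neutrophil precursors, and in 3 of 4 groups the lowest library coincided as well. Shares of all counts were not compared in this way. For the sum of neutrophil markers the highest library coincided in 1 of 4 groups and the lowest in 0, for erythroid markers in 0 and 3, and for cell cycle genes in 0 and 2. Their part in the order was not tested.

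**Figure D4:**
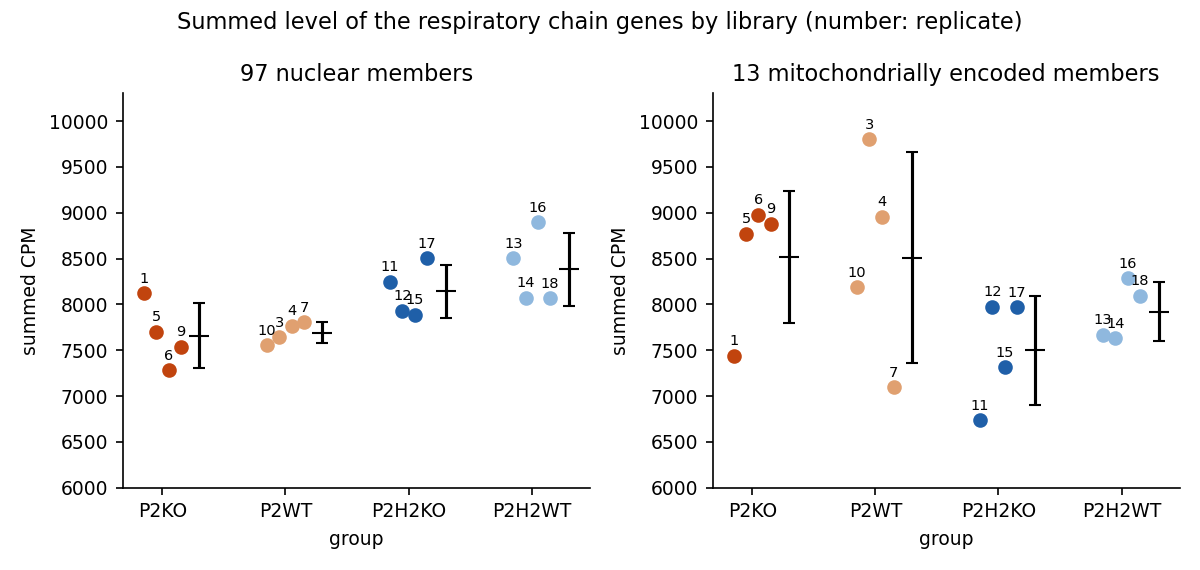
Summed CPM of the 97 nuclear members (left) and the 13 mitochondrially encoded members (right) in each library, with the replicate number beside each point and the mean and SD of each group (n = 4) as bars; the axis does not start at 0. Nuclear sums of P2WT, at most 7807, all lie below those of P2H2WT, at least 8066, on this scale, whereas as shares of all counts (0.745% to 0.818% against 0.762% to 0.883%) they overlap; the mitochondrial sums overlap.

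The spread over all 16 libraries was taken for the tested members alone, with no value for all genes beside it. The highest library was 1.31 times the lowest for the median nuclear member, from 1.13 for Sdha to 4.57 for Cox7a1, and 1.601 times for the median counted mitochondrial member. Cox7a1 is a scarce transcript and its spread holds counting noise, whereas Sdha was counted 5525 to 7488 times per library.

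The 2 control groups were then set against each other as a gauge of what separates the lines. Line, deposited table and processing cannot be told apart in this comparison. Nuclear members were lower in P2WT than in P2H2WT by a small and even margin: 84 of 93 lay below 0, beside 51.7% of all 14080 genes, with a median log2 fold change of -0.13 beside -0.0060 for all genes. At an adjusted p under 0.05 edgeR called 0 members (0.227% of all genes) and DESeq2 called 4 (2.07% of all genes), namely Atp5d, Cox7a2, Ndufb11 and Uqcrfs1. At an unadjusted p under 0.05 edgeR had 27 lower and 0 higher, where 3.10% of all genes were lower and 6.94% higher. The groups did not overlap for 23 members, all lower, beside 2.59% of all genes. These values rest on library sizes scaled by TMM. As shares of all counts the nuclear sums overlapped, at 0.745% to 0.818% in P2WT and 0.762% to 0.883% in P2H2WT (means 0.787% and 0.824%). The 27 were spread over the complexes, with 11 of 44 in complex I, 2 of 8 in II, 2 of 8 in III, 7 of 16 in IV and 5 of 17 in V. Leaving out single libraries moved their number between 10, without P2H2WT replicate 16, and 39, without P2H2WT replicate 14, and it was 13 without P2H2WT replicate 13.

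Ndufb6, an accessory subunit in the membrane arm of complex I, led with 25.6, 28.5, 27.5 and 27.6 CPM in P2WT replicates 10, 3, 4 and 7 and 34.7, 29.8, 33.9 and 30.8 CPM in P2H2WT replicates 13, 14, 16 and 18. All P2WT libraries were below all P2H2WT libraries, by -0.24 on the log2 scale (SE 0.071, edgeR adjusted p = 0.172). Cox7a2, the main isoform of its complex IV subunit, was at 74.4, 78.6, 77.0 and 78.5 CPM against 90.3, 88.1, 91.7 and 86.3 CPM, again without overlap (-0.21, SE 0.061, adjusted p = 0.172 by edgeR and 0.0288 by DESeq2). Ndufb11 and Ndufb8, other membrane-arm subunits, followed at -0.19 (SE 0.057) and -0.20 (SE 0.062). Atp5d, the delta subunit of the ATP synthase stalk, was at 127, 124, 127 and 133 CPM against 143, 139, 154 and 139 CPM (-0.17, SE 0.052), and Uqcrfs1 at -0.16 (SE 0.052).

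**Figure D5:**
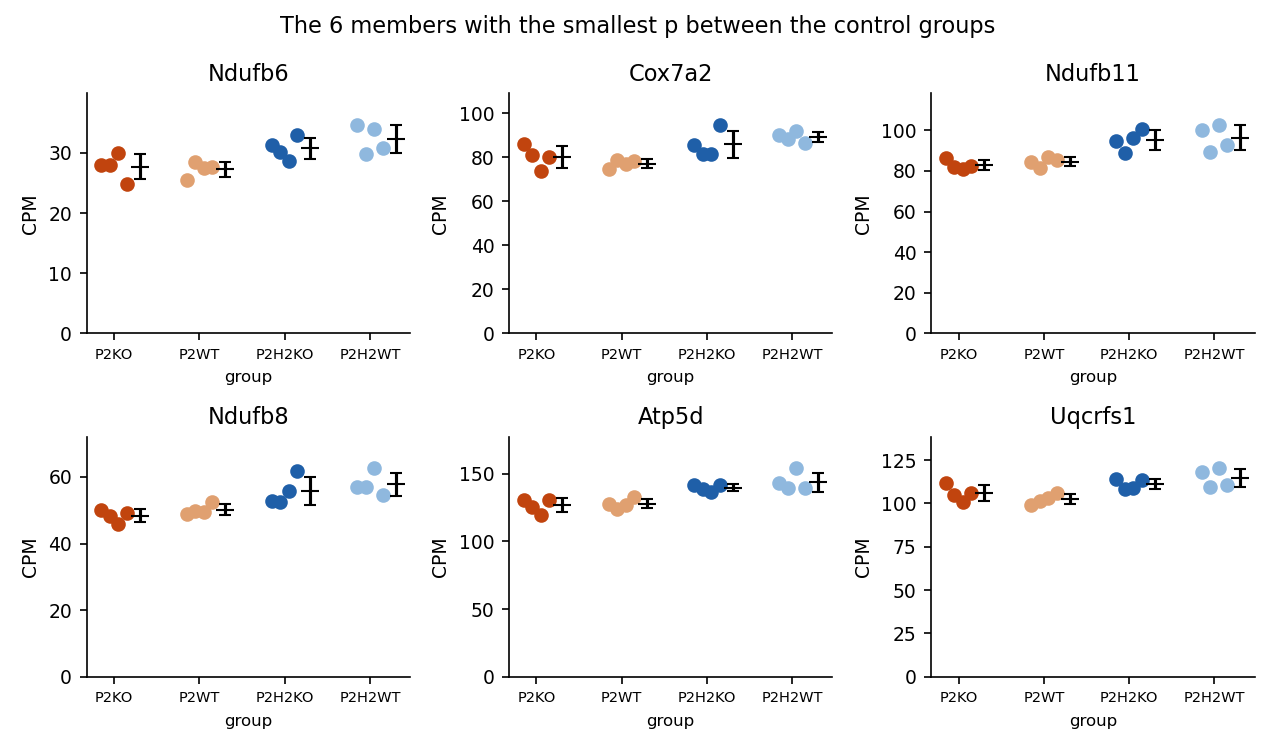
CPM of the 6 members with the smallest p between the control groups in each library (points) with the mean and SD of each group (bars, n = 4), each axis starting at 0. In all 6 the P2WT points lie below the P2H2WT points, for Ndufb6 at 25.6 to 28.5 against 29.8 to 34.7 CPM.

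The mitochondrial members pointed the other way in this comparison, though none passed any threshold: 7 of 7 were above 0 (48.3% of all genes). They ran from 0.21 for mt-Nd2 (SE 0.12) to 0.028 for mt-Co1 (SE 0.10). Their median was 0.14 and fell to 0.040 without P2WT replicate 3. In P2WT, replicate 3 was the highest and replicate 7 the lowest for 7 of 7 (19.9% and 25.2% of all genes). The 7 thus moved together by library and do not count as separate observations. Other RNA in the libraries differed between these groups as well. The 12 endothelial and stromal markers summed to 577 to 1450 CPM in P2WT and 242 to 375 in P2H2WT, with all 12 above 0 and 11 at an unadjusted p under 0.05. Of the 12, 1 had an adjusted p under 0.05 (0.0421 by edgeR), beside 0.227% of all genes. For 9 of the 12 the groups did not overlap, all higher, beside 729 of all 14080 genes. Bglap, an osteoblast gene, was at 0 in 1 or more libraries. Neutrophil markers overlapped, at 40479 to 63230 CPM against 46322 to 71115, with 13 of 13 below 0 and none at an unadjusted p under 0.05. Eosinophil and basophil markers, at 2815 to 4051 CPM against 3920 to 4627, had 10 of 10 below 0 and 1 at an unadjusted p under 0.05 (smallest adjusted p = 0.0702 by edgeR). Megakaryocyte markers, at 60.1 to 131 CPM against 51.8 to 66.9, had 7 of 7 above 0 and 2 at an unadjusted p under 0.05, and erythroid markers, at 35357 to 49309 CPM against 40451 to 57047, had 11 of 15 below 0 and none. Early granule markers overlapped too, at 3977 to 5181 CPM against 3615 to 5333. The part of these other cells in the shift of the nuclear members was not tested.

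Because nuclear members moved together between these groups, their promoters were read from RefSeq (GRCm38.p6; 250 bases before to 50 after the start), where 78 of the 97 nuclear members had an entry, 1 per gene. The ETS motif CCGGAAG, bound by factors such as GABP, was in 20 of 78 (25.6%, both strands searched) beside 9.12% of all 27025 promoters in that set. The NRF1 motif GCGCATGC was in 12 (15.4%) beside 2.80%, and the YY1 motif AAGATGG in 10 (12.8%) beside 6.47%. The HIF core, ACGTG or GCGTG, was in 51 (65.4%) beside 43.8%. Taken apart, ACGTG was in 18 (23.1%) beside 19.7%, and GCGTG in 42 (53.85%) beside 32.5%. The 27025 promoters were not matched to the members by expression or base composition. GCGCATGC and its reverse can overlap, as in Cox6a1. Of the 27 members lower in P2WT, 22 had a promoter, 9 with the ETS motif, 2 with the NRF1 motif, 1 with the YY1 motif and 13 with the HIF core. These are matches of letters and not sites, and their part in the shift between the control groups was not tested. The promoter of Ndufb6, which led the comparison, is shown with its ETS motif in capitals (reverse strand of the motif; chr4:40279372-40279671, minus strand), and that of Cox6a1, the highest nuclear member of complex IV by exon length, with its NRF1 motif in capitals (chr5:115348909-115349208, minus strand).
Ndufb6: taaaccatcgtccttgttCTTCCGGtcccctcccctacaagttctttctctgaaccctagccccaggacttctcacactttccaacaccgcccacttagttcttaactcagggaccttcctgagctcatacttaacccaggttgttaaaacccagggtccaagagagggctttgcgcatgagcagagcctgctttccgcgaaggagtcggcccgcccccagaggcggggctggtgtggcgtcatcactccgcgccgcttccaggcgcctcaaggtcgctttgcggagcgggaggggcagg
Cox6a1: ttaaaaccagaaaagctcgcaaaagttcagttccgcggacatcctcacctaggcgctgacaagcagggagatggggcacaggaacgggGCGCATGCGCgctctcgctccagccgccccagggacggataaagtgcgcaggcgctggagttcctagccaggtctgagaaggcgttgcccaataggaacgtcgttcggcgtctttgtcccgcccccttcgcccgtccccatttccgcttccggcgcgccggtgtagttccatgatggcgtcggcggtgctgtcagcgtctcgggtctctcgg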

How the data were processed

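The authors deposited 2 tables of raw counts, 1 per mouse line with 8 libraries each, made with HTSeq on mm10, per the submitters' processing notes. Use of strand and treatment of reads with several matches are not given in the sources used here. The deposited counts were whole numbers per Ensembl gene, and no normalization had been applied. GENCODE M21 names matched 49326 of 49585 identifiers, and the 259 others held 0.00714% of counts. Of 111 annotated genes matching the prefixes, 110 were analysed here.

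The members and the lists set beside them were chosen with earlier results of these data known. Each line was tested in a fit of its own 8 libraries, and the difference of effects and the control groups in a fit of all 16, with filterByExpr, TMM, estimateDisp, glmQLFit (robust) and glmQLFTest of edgeR 4.0.16 in R 4.3.3. Two-sided p-values were adjusted by the Benjamini-Hochberg method across every gene in a fit, and 0.05 was the threshold. CPM and level per length were computed here from the deposited counts. Copies were found with blastn 2.17.0, aligning each member's longest coding transcript to all other transcripts. Alternatives were RLE and upper-quartile factors, library sizes without mitochondrial genes, DESeq2 1.42.0, a filter left out or set at 10 counts per library, the m or f suffix of the titles as a covariate, all 16 libraries in 1 fit, each library left out in turn and, for the nuclear median, chosen after seeing the data, members with near-identical copies left out. Exact permutation tests used log2(CPM + 1). Genes named are all mitochondrial members, the complex IV isoforms, the 5 members with the smallest p per comparison, the highest and lowest per complex and class, and the comparators. Others were named after their values were seen: the named copies, Cox7b2, Atp5h, Atp5e, Ndufaf6, the members with wide intervals, and Atp5b and Sdha. The fits were tested on simulated counts.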

Additional observations from a re-analysis of the deposited data

Results flagged for a closer look

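In 239 groups of 4 libraries examined for 1 library far from the other 3 (Dixon's ratio above its 95% critical value), 11 were found, and chance alone gives about 1 in 20 groups. P2KO replicate 1 was low for the mitochondrially encoded members, with a sum of 7439 CPM against 8771 to 8980 in the other 3 libraries. In it mt-Co1 was at 2957 CPM (3405 to 3459), mt-Nd1 at 979 CPM (1169 to 1208) and mt-Nd4 at 528 CPM (641 to 650). Mitochondrial ribosomal RNA, at 2140 CPM in P2KO replicate 1, lay within the range of its group, 2117 to 2690. The same library had the highest nuclear sum of its group. P2H2KO replicate 15 was low for Cox6b2 at 11.9 CPM (15.3 to 15.7), Sdhaf2 at 41.6 CPM (44.98 to 45.5) and Sdhaf4 at 6.07 CPM (7.57 to 7.84). Sdhaf3 was at 3.90 CPM in P2H2WT replicate 14 (2.30 to 2.54 in the others) and at 1.98 CPM in P2WT replicate 10 (2.59 to 2.65). Atp5g2 was at 17.2 CPM in P2H2WT replicate 16 (13.4 to 14.01), and Ndufb2 at 10.95 CPM in P2WT replicate 10 (9.68 to 9.86).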

How the results depend on the processing

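Of 216 values recomputed for the counts of called members, their medians and their levels, 213 stayed within the limits set for each and 3 moved. DESeq2 called 4 members between the control groups where edgeR called 0 (291 and 32 of all 14080 genes), and the medians of the level per length were 108.9 for nuclear and 604.8 for counted mitochondrial members with coding length in place of exon length. No member was called in either line or in the difference of the effects under any alternative run. Leaving out each library in turn gave a nuclear median from -0.035 to 0.025 in the P2 line, -0.057 to -0.0020 in the P2H2 line, -0.021 to 0.041 for the difference and -0.15 to -0.091 between controls; the mitochondrial medians ran from -0.073 to 0.10, -0.11 to -0.018, -0.0074 to 0.14 and 0.040 to 0.21. Without a filter the last was 0.024, with 11 mitochondrial genes tested in place of 7. Members with an unadjusted p under 0.05 and lower in P2WT than in P2H2WT numbered 10 to 40 over 15 alternatives. Among single genes, Pdk1 lost its call in the P2H2 line under 10 alternatives, each time in the same direction. Values of 5 genes moved with a library left out. Between controls Sdhaf3 turned to 0.036 without P2H2WT replicate 14, and Cox7a1 moved to -0.27 without P2WT replicate 3. In P2KO against P2WT Cox4i2 moved to -0.23 without P2KO replicate 9. The others, Gpd2 and Prodh, are not members. The cause was not tested. No paired analysis was possible because no replicate number is shared between groups. Depth limits the scarce members Cox7a1, Cox4i2, Atp5l and Sdhaf3.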
